A study of Mus musculus with 9 samples.

Results

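The interferon-induced GTPases are large, dynamin-like enzymes that cells make in response to interferons, and 10 mouse genes of this group were followed here: Gbp2, Gbp3, Gbp5, Gbp7 and Gbp9 of the guanylate-binding protein (GBP) family, and Irgm1, Irgm2, Igtp, Iigp1 and Ifi47 of the immunity-related GTPase (IRG) family. They were chosen by name as a family, but with earlier results of these data known. Of the 10, 8 had a row among the 15228 genes listed (5 GBPs and 3 IRGs), and Iigp1 and Ifi47 were not analysed here. The RNA came from cells of wild-type C57BL/6J mouse retinas that were sorted as retinal ganglion cells (RGCs). The uninjured group (Ctrl) received no treatment, and its age is not given. The other groups had an optic nerve crush (ONC) at 6 to 8 weeks of age and were taken 3 d later. They differed only in the intraocular injection given right after the crush, which was vehicle (labelled PBS) in the ONC group and the membrane-permeable zinc chelator TPEN at 100 μM in the TPEN group. Against Ctrl, both groups therefore carry the crush and an injection together, and the part of each cannot be told apart. Each group had 3 libraries. Whether each library stands for a mouse of its own is not stated, so p-values measure the spread between these libraries, which may be technical.

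GBPs and IRGs are switched on by interferon gamma and, less strongly, by type I interferons. Signals from the interferon receptors pass through the JAK kinases to transcription factors that bind gamma-activated sites (GAS) or interferon-stimulated response elements (ISRE). The proteins bind and hydrolyse GTP, assemble on the vacuoles of intracellular pathogens and break them open, and several GBPs help to start inflammasomes. In neural tissue, microglia and other glia are known to switch on these genes after injury or infection.

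The regions before the starts of these genes held motifs known from interferon-induced genes. A window of 250 bases before a RefSeq transcription start (build GRCm38.p6) was at hand for 7 of the 8 genes, and Gbp3 had a second one, which makes 8 windows. Both strands were searched for an ISRE core (GAAA, any 2 bases and GAAA again) and for a GAS (TTCNNNGAA, where N is any base). The ISRE core was found in 7 of the 8 windows, 1 for each of the 7 genes, against 2.98% of all 32851 mouse windows of the same length. A GAS was found in 4 (Gbp5, Gbp7, Igtp and Irgm2), against 7.02% of all windows, and these 4 held both motifs, against 0.332%. A match is a description of the letters and does not show that a factor binds there.

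The bases up to the start are printed for these 7 genes because their motifs lie close to the start and differ in strand between the families. Each run reads 5′ to 3′ along the gene and ends at the base before the start, with both motifs on either strand in capitals and everything else in lower case. The runs lie at chr3:142559924-142560043 for Gbp3, chr3:142620543-142620662 for Gbp2, chr3:142530216-142530335 for Gbp7 and chr3:142496754-142496933 for Gbp5, all on the plus strand. Those of the IRGs lie at chr11:48871421-48871540 on the minus strand for Irgm1, and on the plus strand at chr11:58199436-58199555 for Igtp and chr11:58214857-58214976 for Irgm2. The second window of Gbp3, before a start farther along the gene, held neither motif and is not printed.
Gbp3: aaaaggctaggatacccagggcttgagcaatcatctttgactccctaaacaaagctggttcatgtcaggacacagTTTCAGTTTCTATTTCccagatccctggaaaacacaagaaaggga
Gbp2: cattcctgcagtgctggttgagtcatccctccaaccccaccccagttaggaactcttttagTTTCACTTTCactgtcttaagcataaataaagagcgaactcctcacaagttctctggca
Gbp7: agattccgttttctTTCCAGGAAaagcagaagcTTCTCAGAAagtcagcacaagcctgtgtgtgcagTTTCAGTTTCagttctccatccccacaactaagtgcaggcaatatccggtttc
Gbp5: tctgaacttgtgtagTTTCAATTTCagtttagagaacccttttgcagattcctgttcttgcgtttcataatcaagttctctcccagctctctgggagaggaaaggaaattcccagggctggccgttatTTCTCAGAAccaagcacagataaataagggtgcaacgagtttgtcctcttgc
Irgm1: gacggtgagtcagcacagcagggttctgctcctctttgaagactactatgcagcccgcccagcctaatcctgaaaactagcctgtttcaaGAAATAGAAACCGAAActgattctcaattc
Igtp: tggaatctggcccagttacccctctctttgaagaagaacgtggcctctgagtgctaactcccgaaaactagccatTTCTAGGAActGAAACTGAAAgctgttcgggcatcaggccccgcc
Irgm2: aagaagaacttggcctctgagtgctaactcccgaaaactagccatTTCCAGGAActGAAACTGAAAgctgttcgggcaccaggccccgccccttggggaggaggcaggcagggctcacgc

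In Gbp3, Gbp2 and Gbp7 the ISRE core began between 59 and 45 bases before the start and read on the opposite strand. Gbp3 had a second match 39 bases before the start that overlapped the first. The match in Gbp5 lay farther away, 165 bases before the start, and 1 of its GAS matches (245 bases before the start) lies outside the printed run. In the IRGs the ISRE core read along the gene, at 30 and 24 bases before the start in Irgm1 (overlapping matches), 34 in Igtp and 64 in Irgm2. Igtp and Irgm2 each had a GAS that began 11 bases ahead of the ISRE core, and with a shift of 30 bases their printed runs were identical at 87 of 90 bases. Of the 8 nearest neighbouring genes 7 had a window at hand, and none of these held an ISRE core. The 8 neighbours include family genes, namely Gm43302, a near copy of Gbp9, and 9930111J21Rik2 of the IRG family. Of 7 other interferon-induced GTPases with a row, only 1 had a window at hand, and it held no ISRE core.

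**Figure D1:**
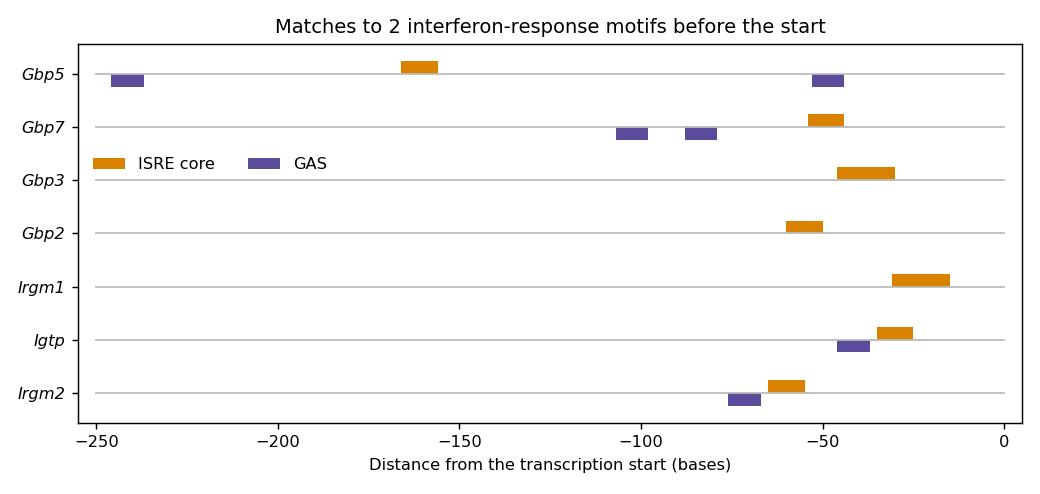
Positions of the ISRE core (orange, drawn above the line) and GAS (purple, below the line) in the 250 bases before the transcription start of 7 GTPase genes, with distance from the start in bases on the x axis. The ISRE core lies within 64 bases of the start in every gene but Gbp5, the second window of Gbp3 is not drawn, and overlapping matches in Gbp3 and Irgm1 merge into 1 longer bar.

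Across the table as a whole, total reads worked out from the values were between 19946993 and 23109754 per library, so that 3 reads, the limit for a gene without a read, stand for 0.130 to 0.150 RPM (counting error only). The defining RGC markers Rbpms and Slc17a6 ranked 13805 and 14020 of 15228 genes by mean RPKM, the deposited level normalized for exon length and library size, while the neurofilament gene Nefl ranked 153. The summed level of 8 rod markers was 16764 to 19877 RPKM in every library, against 291 to 395 RPKM for 11 RGC markers, of which Nefl alone held 193 to 271 RPKM. The labelled cell type is therefore called cells sorted as RGCs, and in such bulk samples fewer cells of a type and less RNA per cell cannot be told apart.

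After the crush the 8 GTPase genes were expressed at higher levels in every ONC library than in any Ctrl library, and with TPEN their levels lay in between. Their summed level was 4.24 to 5.05 RPKM in Ctrl, 28.3 to 29.2 RPKM in ONC and 14.0 to 15.3 RPKM in TPEN. The GBPs made up most of it, with 25.3 to 25.7 RPKM in ONC, and the IRGs contributed 3.05 to 3.96 RPKM. Gbp3 alone held 49.8% to 58.7% of the sum in Ctrl, 58.6% to 63.2% in ONC and 51.8% to 55.1% in TPEN.

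**Figure D2:**
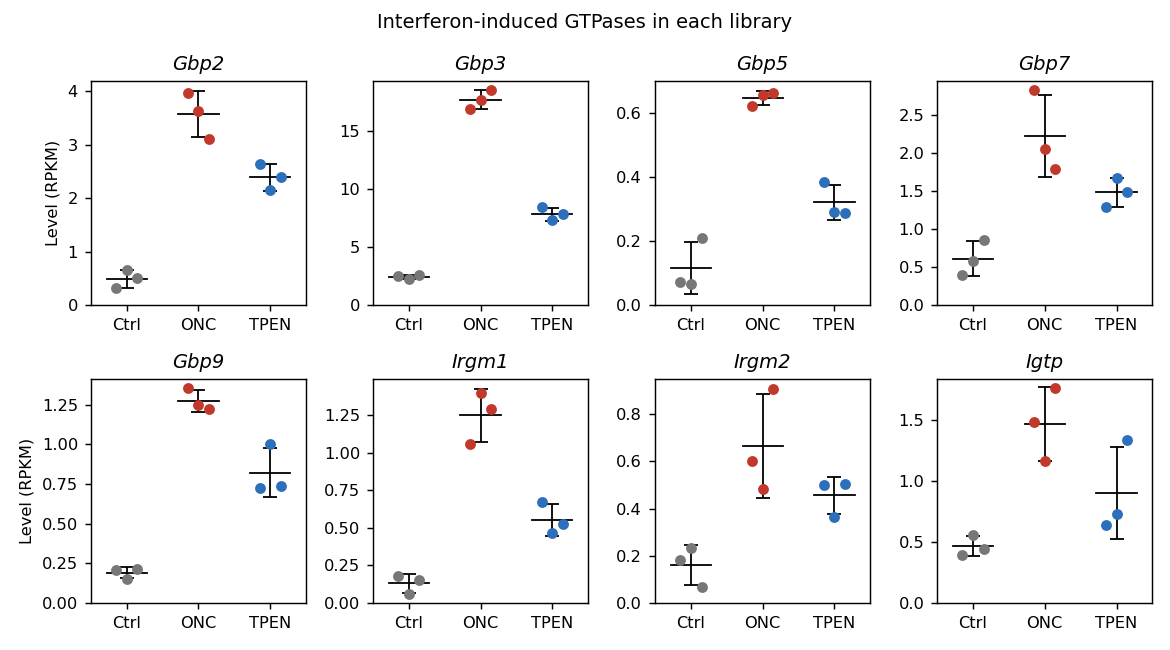
Level of each of the 8 interferon-induced GTPases in RPKM (y axis, from 0, with its own scale in each panel) in the 3 libraries of Ctrl, ONC and TPEN (x axis). Points are libraries, the long line is the mean and the bars are 1 SD; every ONC library lies above every Ctrl library, and only in Irgm2 and Igtp do ONC and TPEN libraries overlap.

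Levels were compared with limma on log2(RPKM + 0.1), a scale that understates the change of genes with low values. A gene was called changed at an adjusted p under 0.05 (Benjamini-Hochberg over all genes tested) and at least 1.5-fold. Of the 8 genes, 6 had a mean of at least 0.5 RPKM and entered the test, while Gbp5 and Irgm2 were below it and take their values from a fit without that limit. The limit can let a gene in through its high group, so the counts describe these genes and are not evidence of a family-wide change.

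In ONC/Ctrl, the 6 GTPases tested were called higher, where 4.58% of the 13566 genes tested were. Without the limit on low values all 8 were called higher, against 6.19% of 15228 genes. The ONC libraries did not overlap the Ctrl libraries in any of the 8, which held for 21.3% of all listed genes. The median log2 fold change of the 8 was 2.05, against 0.02 over all listed genes.

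In TPEN/ONC, which shares its ONC libraries with the first comparison, Gbp3 and Irgm1 were called lower, 2 of the 6 tested, where 1.21% of all genes tested were. Without the limit on low values the calls were again 2, against 1.85% of all listed genes. TPEN and ONC libraries did not overlap in 6 of the 8, with TPEN lower, which held for 15.6% of all listed genes. The median log2 fold change was -0.64, against -0.01 over all listed genes.

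In TPEN/Ctrl, 5 of the 6 tested were called higher, where 3.45% of genes tested were, and 7 of 8 without the limit, against 4.50% of all listed genes. The exception was Igtp. The TPEN libraries lay above the Ctrl libraries in all 8, which held for 19.0% of all listed genes, with a median log2 fold change of 1.37 against 0.02. Every ONC library lay above every other library in 6 of the 8, against 9.44% of all listed genes. The full order of Ctrl below TPEN below ONC was also seen for 6 of the 8, against 4.39% of all listed genes.

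**Figure D3:**
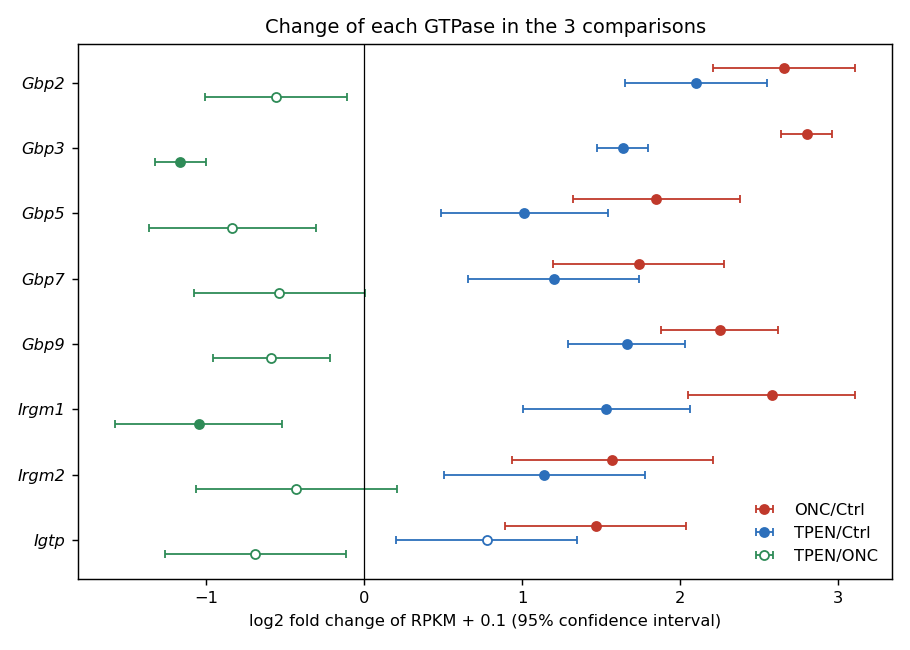
Log2 fold change of RPKM + 0.1 (x axis, with the 95% confidence interval of the limma fit) of each GTPase (y axis) in ONC/Ctrl (red), TPEN/Ctrl (blue) and TPEN/ONC (green). Filled points were called changed and open points were not; ONC/Ctrl values run from 1.47 (Igtp) to 2.80 (Gbp3), and TPEN/ONC values lie below 0 for all 8, with filled points for Gbp3 and Irgm1 only.

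The GBP with the highest level was Gbp3, which acts with the other GBPs of its cluster at the vacuoles of intracellular pathogens. Gbp3 lies on chromosome 3 (142560026 to 142573209, plus strand, GRCm38, protein-coding). Its level was 2.49, 2.28 and 2.59 RPKM in the Ctrl libraries, 16.9, 17.7 and 18.5 RPKM in ONC, and 8.43, 7.31 and 7.82 RPKM in TPEN. The groups stood far apart, and the spread within a group was small (17.7 ± 0.807 RPKM in ONC, SD, n = 3). Between 170 and 182 reads carried the value in Ctrl and between 1267 and 1387 in ONC, more than for any other GTPase here. Gbp3 rose 7.21-fold by the ratio of the means, with a log2 fold change of 2.80 (SE 0.07, limma adjusted p = 8.7e-09). It fell with TPEN to 0.444 times the ONC level, a log2 fold change of -1.16 (SE 0.07, limma adjusted p = 1.8e-05), and remained called higher in TPEN/Ctrl at 1.64 (limma adjusted p = 6.1e-07).

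Gbp2, which helps to lyse pathogen vacuoles and to expose their contents to inflammatory caspases, lies downstream of Gbp3 (142620602 to 142638008, plus strand). Its level was 0.319, 0.654 and 0.515 RPKM in Ctrl, 3.98, 3.63 and 3.11 RPKM in ONC, and 2.65, 2.15 and 2.39 RPKM in TPEN. No library of a group overlapped those of another. Gbp2 rose by a ratio of means close to that of Gbp3, at 7.21-fold (log2 fold change 2.66, SE 0.20, limma adjusted p = 1.3e-05). With TPEN it was less reduced than Gbp3, at 0.670 times the ONC level, a difference in size between the genes that was not tested. Its TPEN/ONC log2 fold change of -0.56 did not pass (95% interval -1.01 to -0.11, limma adjusted p = 0.136). It passed the adjusted p without Ctrl replicate 1 (0.0468), with the 6 libraries compared alone (0.0375) and with voom on the whole reads (0.00826), in each case under 1.5-fold and so without a call.

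Gbp7, known for helping the phagocyte NADPH oxidase to assemble on vacuoles, and Gbp5, known for promoting assembly of the NLRP3 inflammasome, lie upstream in the same cluster (142530342 to 142550149 and 142493978 to 142522344, both plus strand). Gbp7 was at 0.397, 0.578 and 0.852 RPKM in Ctrl, 2.82, 2.06 and 1.79 RPKM in ONC, and 1.29, 1.67 and 1.48 RPKM in TPEN. The lowest ONC library was only slightly above the highest TPEN library. Gbp7 rose 3.65-fold (log2 fold change 1.74, SE 0.24, limma adjusted p = 7.8e-04). Its TPEN/ONC value of -0.54 did not pass, and the interval reached from -1.08 to 0.00 (limma adjusted p = 0.230). Gbp7 also shares 637 bases of exon with the predicted gene Gm43802 on the same strand, so its reads are uncertain to that extent.

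Gbp5 had low levels throughout, at 0.0739, 0.0652 and 0.210 RPKM in Ctrl, 0.623, 0.656 and 0.663 RPKM in ONC, and 0.384, 0.292 and 0.287 RPKM in TPEN. The ONC libraries were close together and above all others, while Ctrl replicate 3 was nearer to the lowest TPEN library than to the other Ctrl libraries. In the fit without the limit on low values, Gbp5 rose by 1.85 on the log2 scale (SE 0.24, limma adjusted p = 4.0e-04). Its TPEN/ONC value was -0.83 (limma adjusted p = 0.0641), and without Ctrl replicate 3 the same value was called lower (limma adjusted p = 0.0119). Its TPEN/Ctrl value of 1.01 (limma adjusted p = 0.0194) lost the call without Ctrl replicate 1 (0.0690), Ctrl replicate 2 (0.0664) or TPEN replicate 1 (0.0687).

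Gbp9, a less studied family member, lies apart from the others on chromosome 5 (105077630 to 105139539, minus strand). Its level was 0.207, 0.151 and 0.212 RPKM in Ctrl, 1.35, 1.25 and 1.22 RPKM in ONC, and 0.725, 1.0 and 0.737 RPKM in TPEN. All libraries kept the order Ctrl, TPEN, ONC, with TPEN replicate 2 the nearest to ONC. Gbp9 rose 6.71-fold (log2 fold change 2.25, SE 0.17, limma adjusted p = 1.2e-05). Its TPEN/ONC value of -0.59 did not pass (limma adjusted p = 0.0651), but did without TPEN replicate 2, at -0.72 (limma adjusted p = 0.0478). Transcripts of Gbp9 are near copies of those of Gbp6, Gbp10 and Gm43302 (91.4% to 91.6% identical over 1831 to 1846 bases) and, over shorter stretches, of Gbp8 (94.0% over 1234 bases), Gbp11 (93.2% over 1328) and Gbp4 (91.6% over 1276). It also shares 60 exon bases with Gbp4 on the same strand, so its reads are uncertain.

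Among the IRGs, Irgm1 is a regulator that keeps effector IRGs off the membranes of the cell itself and takes part in autophagy. It lies on chromosome 11 (48861968 to 48871683, minus strand). Its level was 0.177, 0.0596 and 0.154 RPKM in Ctrl, 1.06, 1.40 and 1.29 RPKM in ONC, and 0.672, 0.465 and 0.526 RPKM in TPEN. The groups did not overlap, and the ratio of the ONC to the Ctrl mean was 9.59, above that of the other GTPases here. On the log2 scale Irgm1 rose by 2.58 (SE 0.24, limma adjusted p = 5.1e-05), a size that rests on 8 to 23 reads per Ctrl library and was 1.91 after quantile normalization, 0.99 with a pseudocount of 1 RPKM and 3.37 with voom. Its TPEN/Ctrl value of 1.53 was 0.80 after quantile normalization. It was called lower in TPEN/ONC at -1.05 (SE 0.24, limma adjusted p = 0.0266). That call was lost without ONC replicate 1 (0.0552), ONC replicate 2 (0.0988), ONC replicate 3 (0.0877), TPEN replicate 2 (0.0875) or TPEN replicate 3 (0.0877), while the fold change stayed between -1.17 and -0.95.

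Igtp (also called Irgm3) and Irgm2 are the other regulators of this kind, found on the endoplasmic reticulum and the Golgi. Both lie on chromosome 11, plus strand, at 58199556 to 58207591 and 58199618 to 58222782. In the GENCODE annotation Irgm2 has a transcript that begins inside the first exon of Igtp, with 162 bases shared, so the reads there cannot be given to one of them. Igtp was at 0.397, 0.556 and 0.443 RPKM in Ctrl, 1.48, 1.16 and 1.77 RPKM in ONC, and 0.643, 0.735 and 1.34 RPKM in TPEN. TPEN replicate 3 reached into the ONC range, while the other TPEN libraries were nearer to Ctrl. Igtp rose by 1.47 on the log2 scale (SE 0.25, limma adjusted p = 0.00308), but did not pass a test against 1.5-fold itself (limma adjusted p = 0.138). Neither its TPEN/ONC value of -0.69 (95% interval -1.26 to -0.12, limma adjusted p = 0.147) nor its TPEN/Ctrl value of 0.78 (limma adjusted p = 0.0778) passed. Without TPEN replicate 3 the TPEN/ONC value was -0.98 (limma adjusted p = 0.0361).

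Irgm2 was at 0.181, 0.235 and 0.0675 RPKM in Ctrl, 0.601, 0.484 and 0.909 RPKM in ONC, and 0.502, 0.366 and 0.503 RPKM in TPEN. ONC and TPEN overlapped, and ONC replicate 3 stood well above the other libraries. Irgm2 rose by 1.57 on the log2 scale in ONC/Ctrl (SE 0.28, limma adjusted p = 0.00344, no limit on low values), and did not pass the test against 1.5-fold (limma adjusted p = 0.0962). Its TPEN/ONC value of -0.43 did not pass (95% interval -1.07 to 0.21, limma adjusted p = 0.427). Its TPEN/Ctrl value of 1.14 (limma adjusted p = 0.0263) lost the call without Ctrl replicate 1 (0.0510), Ctrl replicate 3 (0.0668), TPEN replicate 1 (0.0793) or TPEN replicate 3 (0.0819).

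In an exact permutation test of the level of each gene over the 3 groups (280 arrangements of the libraries, ratio of the variance between to that within groups), 6 of the 8 reached the smallest p that the design allows, 0.00357. This test was run on these 8 genes only, so no share over all listed genes stands beside the count. It uses the same values as the comparisons above and adds no separate evidence. Irgm2 and Igtp, the pair with overlapping ONC and TPEN libraries, had an exact permutation p of 0.0107 each. On linear RPKM the exact permutation p of Igtp was 0.0393, and without 1 library it ran from 0.00714 to 0.0464 for Igtp and from 0.00357 to 0.0250 for Irgm2.

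The share of the rise after crush that was still present with TPEN is given here as a description, and differences between genes were not tested. It was computed for each TPEN library as its distance from the Ctrl mean, in percent of the distance between the ONC and Ctrl means. The means for Gbp3, Irgm1 and Gbp5 were 35.4 ± 3.69%, 37.9 ± 9.50% and 38.6 ± 10.4% (SD over the TPEN libraries, n = 3, without the error of the Ctrl and ONC means). Gbp7, Gbp9, Irgm2 and Gbp2 kept 54.0 ± 11.6%, 58.2 ± 14.4%, 58.7 ± 15.6% and 61.6 ± 8.09%, and most pairs of the 8 genes overlapped within 1 SD. Igtp kept 43.8 ± 37.6%, a spread set by TPEN replicate 3 at 86.9%, with the other libraries at 17.7% and 26.7%. In the genome, Gbp2 and Gbp3 stand next to each other and rose by like ratios, and their shares did not overlap in any TPEN library (53.6% to 69.8% against 31.9% to 39.2%). The median share over the 8 genes was 48.9%.

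The nearest listed genes on either side of the GTPases, leaving out genes that overlap them, were compared as well. Some of these neighbours belong to the family themselves. On chromosome 3, Gbp5, Gbp7, Gbp3 and Gbp2 follow one another, with gaps of 7998, 9877 and 47393 bases. The nearest listed genes outside, Pdlim5 and Kyat3, were not called in ONC/Ctrl, with log2 fold changes of -0.18 and -0.25. Mrpl22 (0.24) and Zfp692 (-0.11), which flank Igtp and Irgm2, were not called in ONC/Ctrl either, nor were Zfp951 (-0.03) beside Gbp9 and Trim7 (0.29) beside Irgm1. On the other side of Gbp9 lies Gm43302, a near copy of it, which rose in ONC/Ctrl (1.77) and fell in TPEN/ONC (-0.62, limma adjusted p = 0.0222). On the other side of Irgm1 lies 9930111J21Rik2, a gene of the IRG family with 4 to 6 reads per Ctrl library, which in the fit without the limit on low values also rose in ONC/Ctrl (1.73) and fell in TPEN/ONC (-0.98, limma adjusted p = 0.00790).

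**Figure D4:**
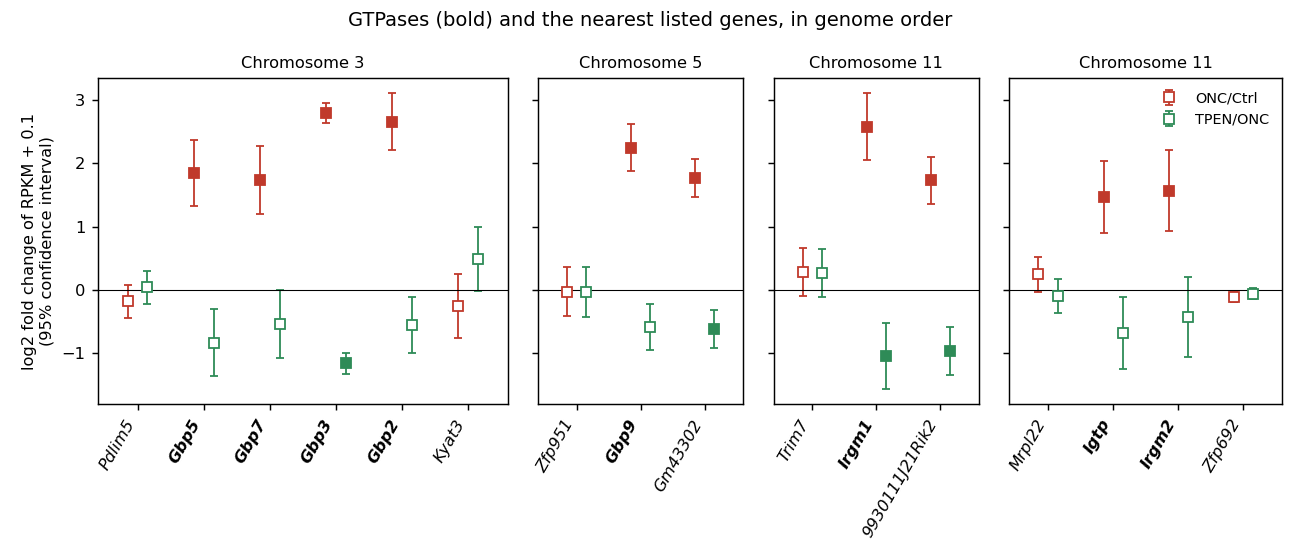
Log2 fold change of RPKM + 0.1 (y axis, with the 95% confidence interval of the limma fit) of the GTPases (bold) and of their nearest listed genes, in genome order within each cluster (x axis, not to distance). Red squares are ONC/Ctrl, green squares TPEN/ONC, and filled squares were called changed; Pdlim5, Kyat3, Zfp951, Trim7, Mrpl22 and Zfp692 lie between -0.25 and 0.29 in ONC/Ctrl, and the GTPases at 1.47 or above.

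Of 15 other interferon-induced GTPases listed for comparison, 7 had a row and 3 entered the test, and these 3 rose in ONC/Ctrl while 1 of them fell in TPEN/ONC. Without the limit on low values, ONC/Ctrl gave 7 calls, all higher, and TPEN/ONC gave 3, all lower (Gbp6, Mx2 and 9930111J21Rik2). For this and the following lists, the shares of all genes tested were 4.58% higher in ONC/Ctrl, 1.21% lower in TPEN/ONC and 3.45% higher in TPEN/Ctrl. Without the limit the same shares were 6.19%, 1.85% and 4.50% of all listed genes. Mx1, an antiviral dynamin-like GTPase that responds to type I interferon, was at 0.0245, 0 and 0.0820 RPKM in Ctrl, 0.859, 1.13 and 0.979 RPKM in ONC, and 0.563, 0.630 and 0.605 RPKM in TPEN. Its log2 fold change in ONC/Ctrl was 3.05 (limma adjusted p = 1.4e-05), larger on this scale than that of any of the 8 genes. Mx1 rested on only 2, 0 and 6 reads in the Ctrl libraries, so this size and the ranking are uncertain.

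In the pathway that leads to the GTPases, the ligand genes Ifng and Ifnb1 were not analysed here. Of 18 genes of ligands, receptors and signalling, 14 were tested, and 7 were called higher in ONC/Ctrl, 3 lower in TPEN/ONC and 5 higher in TPEN/Ctrl. Among the receptors, Ifngr1, a chain of the interferon gamma receptor, was at 11.4 to 12.1 RPKM in the Ctrl and ONC libraries and had a log2 fold change of -0.03, which did not pass (limma adjusted p = 0.717). Neither did the kinases Jak1 (0.06) and Jak2 (0.11). Ifnar2, a chain of the type I interferon receptor, was higher at 1.65 (limma adjusted p = 1.2e-04). The partner chains went otherwise. Ifnar1, the other chain of the type I receptor, did not pass (0.11, limma adjusted p = 0.354). Ifngr2, the other chain of the interferon gamma receptor, passed the adjusted p but not 1.5-fold (0.38, limma adjusted p = 0.0421).

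Irf1, an interferon-response factor that binds ISREs, was higher in ONC/Ctrl at 1.41 (limma adjusted p = 3.2e-04), and its TPEN/ONC value of -0.51 did not pass (limma adjusted p = 0.112). Nlrc5, an interferon-induced activator of MHC class I genes, was below the limit on low values (2 to 10 reads per Ctrl library) and is not among those counts. In the fit without the limit it was higher at 2.51 and lower in TPEN/ONC at -1.38 (limma adjusted p = 0.00410).

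The genes that help to place the GTPases on membranes had few calls, beside 4.58% of all genes tested called higher in ONC/Ctrl. Of 15 ubiquitin-like conjugation and autophagy genes, all tested, only Trim21 was called in ONC/Ctrl (1.78, limma adjusted p = 3.3e-04), and none was called in TPEN/ONC. Of 7 genes listed for protein prenylation, which include those that attach the lipid anchor of some GBPs, none was called in any of the 3 comparisons. Of 10 inflammasome and pyroptosis genes, 8 had a row and 3 were tested, of which 2 rose in ONC/Ctrl and 2 fell in TPEN/ONC. Without the limit, 7 of the 8 were higher and 5 lower, among them Gsdmd, the pore-forming gasdermin D, at 1.84 in ONC/Ctrl and -1.19 in TPEN/ONC (limma adjusted p = 0.00315).

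Markers of microglia and macrophages moved with the GTPases. Of 14 such markers, 13 had a row, and their summed level was 9.56 to 9.87 RPKM in Ctrl, 72.9 to 76.2 RPKM in ONC and 35.8 to 39.3 RPKM in TPEN. Without the limit on low values, all 13 were called higher in ONC/Ctrl, with a median log2 fold change of 2.72, and 7 were called lower in TPEN/ONC, where the median was -0.86. The summed level of the GTPases divided by that of these markers was 0.443 to 0.511 in Ctrl, 0.384 to 0.388 in ONC and 0.384 to 0.406 in TPEN. The part of these cells in the levels of the GTPases was not tested. None of the 13 was at 0 in any library, and the microglial gene Tmem119 was at 0.902 to 1.09 RPKM in ONC.

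Other cell types were also read from their markers. The 3 endothelial markers with a row, of 10, were not called, with sums of 13.4 to 14.2 RPKM in Ctrl, 15.7 to 16.1 RPKM in ONC and 16.8 to 17.8 RPKM in TPEN. Of the 8 rod markers and of the 8 RGC markers tested, none was called in the 3 comparisons. Without the limit on low values, of 11 RGC markers Pou4f1 was lower in ONC/Ctrl (-1.30, limma adjusted p = 0.0108) and Rbpms in TPEN/Ctrl (-0.77, limma adjusted p = 0.0333). Of 8 Müller glia markers, Apoe and Vim were higher in ONC/Ctrl and Apoe was lower in TPEN/ONC (-0.59, limma adjusted p = 3.9e-06). The markers did not move as 1, and their median log2 fold change in ONC/Ctrl was -0.07. Glul went down in ONC/Ctrl (-0.57, limma adjusted p = 9.7e-07), under 1.5-fold and so without a call. In TPEN/Ctrl, Glul was called lower (-0.75, limma adjusted p = 2.0e-07) and Vim higher (1.21). The sums of the 8 Müller glia markers were 553 to 574 RPKM in Ctrl, 617 to 629 RPKM in ONC and 487 to 498 RPKM in TPEN. Of 5 astrocyte markers 4 had a row. Their sums were 5.64 to 6.33 RPKM in Ctrl, 27.3 to 28.4 RPKM in ONC and 17.4 to 20.2 RPKM in TPEN. In ONC and TPEN most of this was Gfap, at 21.8 to 22.9 RPKM and 13.4 to 15.1 RPKM. Gfap and Aldh1l1 were called higher in ONC/Ctrl, and Gfap lower in TPEN/ONC (-0.62, limma adjusted p = 1.6e-04). S100b (0.26) and Pdgfra (-0.04, without the limit on low values) were not called in ONC/Ctrl. Of 7 neutrophil markers only Csf3r had a row (0.124 to 0.223 RPKM in Ctrl, 0.989 to 1.13 RPKM in ONC and 0.250 to 0.511 RPKM in TPEN), which was called lower in TPEN/ONC (-1.35, limma adjusted p = 0.00829). The 12 T cell and natural killer cell markers were not analysed here. The part of these cells in the levels of the GTPases was not tested either.

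**Figure D5:**
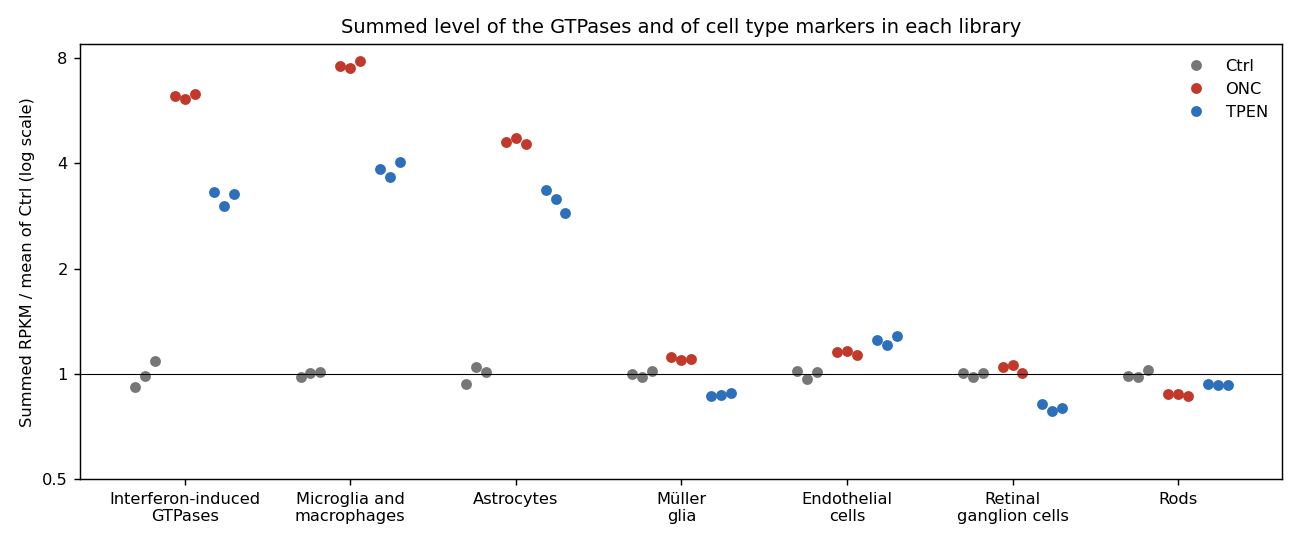
Summed RPKM of the 8 GTPases and of the markers of 6 cell types in each library, divided by the mean of the Ctrl libraries (y axis, log scale), with 1 point per library. For the GTPases, the microglia and macrophage markers and the astrocyte markers every TPEN library lies between Ctrl and ONC, while the Müller glia, endothelial, RGC and rod sums stay nearer to 1. Most of the astrocyte sum in ONC and TPEN is Gfap.

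The 5 genes tested whose 9 values lay closest to the mean profile of the 6 GTPases tested (smallest root mean square difference of centred log2 values) were Lgals3bp (0.0784), Tgm2 (0.0870), Cebpa (0.109), Pld4 (0.115) and Prss56 (0.147). The GTPases themselves differed from their own mean profile by 0.176 (Gbp9) to 0.446 (Igtp). Lgals3bp, the gene of a secreted galectin-binding glycoprotein, was at 0.501 to 0.630 RPKM in Ctrl, 2.83 to 3.04 RPKM in ONC and 1.48 to 1.85 RPKM in TPEN. Of the 5, 4 had a promoter window at hand, and none of those held an ISRE core.

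Among all genes tested with a promoter window (9160), 2.88% held an ISRE core. The share was 6.68% (28 of 419) among those called higher in ONC/Ctrl, and 17.8% (18 of 101) among those also called lower in TPEN/ONC. The GTPases themselves are counted here: Gbp2, Gbp3, Gbp7, Irgm1 and Igtp in the first of these shares, and Gbp3 and Irgm1 in the second. These shares were not tested, and the comparisons share the ONC libraries. A GAS was in 6.98% of the genes tested, in 10.7% of those called higher in ONC/Ctrl and in 5.94% of those also called lower in TPEN/ONC. Of 8 microglia and macrophage markers with a window, 1 (Aif1) held an ISRE core, and none held a GAS.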

How the data were processed

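Stranded mRNA libraries with molecular identifiers were sequenced from cells sorted as RGCs in 3 groups of 3. The authors trimmed reads (Trimmomatic 0.36 in the submitters' processing notes), mapped them to GRCm38/mm10 with STAR and deposited RPKM values for 15228 genes. The counting tool, annotation, strand use and collapsing of identifiers are not given in the sources used here. The log2 fold changes and p-values that the authors deposited beside them were not used. RPKM multiplied by exon length gave whole reads for 100% of values (tolerance 0.01 read), and these were used for depth and for voom.

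Libraries were grouped by title. For 13566 genes whose mean reached 0.5 RPKM, log2(RPKM + 0.1) was fitted with limma 3.58.1 (R 4.3.3, trend, all 9 libraries, 1 coefficient per group), with Benjamini-Hochberg adjustment. The fit was tested on simulated data. Exact permutation tests and motif searches ran in Python 3.11.15, and near copies were sought with blastn 2.17.0 (at least 90% identity over 100 bases). Named were the 10 GTPases, genes of the lists described, the 5 most alike genes and genes overlapping or neighbouring a GTPase. The GTPases and gene lists were chosen with earlier results of these data known. Positions come from GENCODE M21 and promoters from RefSeq (GRCm38.p6), which holds no window for Gbp9 here. Alternatives were quantile normalization, a pseudocount of 1, no limit or a mean of 1 RPKM, the 6 libraries compared, a replicate block, a test against 1.5-fold, voom and leaving out each library. The values of 1 gene of the interferon signalling list are not reported here.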

Additional observations from a re-analysis of the deposited data

How the results depend on the processing

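No fold change of any of the 8 GTPases reversed under an alternative. Shares of all genes called were worked out only for the main fit and the fit without the limit on low values. The counts of calls under the other settings therefore describe the GTPases alone. With a mean of at least 1 RPKM required, 3 GTPases were tested, which left 3 calls in ONC/Ctrl, 1 in TPEN/ONC and 3 in TPEN/Ctrl. A test against 1.5-fold itself left 5 calls in ONC/Ctrl (without Igtp), 1 in TPEN/ONC and 3 in TPEN/Ctrl, and a pseudocount of 1 RPKM left 6, 1 and 4. The size of a fold change depends on the scale. With a pseudocount of 1 RPKM the ONC/Ctrl values of Gbp2, Gbp7, Gbp9, Irgm1 and Igtp were 1.61, 1.0, 0.93, 0.99 and 0.75 on the log2 scale, and those of Gbp5 and Irgm2, without the limit on low values, 0.56 and 0.51. Leaving out 1 library gave 6 to 6 calls in ONC/Ctrl, 1 to 2 in TPEN/ONC and 5 to 5 in TPEN/Ctrl. Where TPEN replicate 2 or 3 was left out, the 2 calls of TPEN/ONC held Gbp9 or Igtp in place of Irgm1. With voom on whole reads, 3 GTPases were called in TPEN/ONC (Gbp3, Irgm1 and Gbp9), and Gbp5 as well without the limit on low values (-1.02, adjusted p = 0.00282). Gbp2 and Gbp7 passed the adjusted p (0.00826 and 0.0183) but not 1.5-fold. The median share of the rise kept with TPEN ran from 45.2% to 55.5% without 1 library, an alternative chosen after seeing the data.

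Libraries of different groups with the same replicate number did not visibly deviate together (r from -0.06 to 0.03 over 9 pairs). Pairs with different numbers ran from -0.04 to 0.05 over 18 pairs. These values cannot show whether libraries with the same number were prepared together, which is not stated. With the replicate block, TPEN/ONC had 1 call, since Irgm1 was at an adjusted p of 0.0521, and Irgm2 in TPEN/Ctrl was at 0.0603 without the limit on low values.

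Depth limits the low genes most: in the Ctrl libraries Irgm2 rested on 5 to 20 reads, Irgm1 on 8 to 23, Gbp5 on 10 to 28 and Igtp on 18 to 26.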
